A study of Mus musculus with 230 samples.

Results

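Hcrt, Pmch, Avp and Oxt encode peptides made by neurons of the hypothalamus, a structure that was not among the 6 brain regions punched in this mouse study of cocaine self-administration. The members are these 4 genes, listed by name, of 43346 gene identifiers in the count table. They were read out as CPM (the count of a gene scaled to library size, and scaled between libraries by TMM factors) in each of 230 libraries, as a measure of tissue next to the intended punch. They were chosen from their levels in these libraries. Their levels, the order of the regions and the way the genes vary together are therefore given as a description, with no test.

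The animals were 45 male C57BL/6J mice from The Jackson Laboratory, whose age is not given in the labels. They self-administered saline or cocaine. The mice labelled S24 (saline, 8 mice) and C24 (cocaine, 8 mice) have no challenge listed and belong to the 24 h withdrawal point. The other mice had 30 d of withdrawal, then an intraperitoneal injection of saline or cocaine in the self-administration setting, and tissue was taken 1 h later. They form the groups SS (saline, then saline, 8 mice), SC (saline, then cocaine, 8 mice), CS (cocaine, then saline, 6 mice) and CC (cocaine, then cocaine, 7 mice). The regions were the basolateral amygdala (BLA, 38 libraries), caudate putamen (CPu, 42), nucleus accumbens (NAc, 39), prefrontal cortex (PFC, 41), ventral hippocampus (vHipp, 39) and ventral tegmental area (VTA, 31). Libraries are called here by region and mouse number, so VTA-055 and NAc-055 are from the same animal.

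Hcrt encodes the precursor of hypocretin (orexin), which promotes wakefulness and reward seeking, and Pmch encodes the precursor of melanin-concentrating hormone, which is tied to feeding and sleep. Both are made by separate sets of neurons that lie intermingled in the lateral hypothalamus and send axons through most of the brain, the VTA included. Avp and Oxt encode the precursors of vasopressin and oxytocin. Magnocellular neurons of the paraventricular and supraoptic nuclei make them for release from the posterior pituitary, and Avp is also made by neurons of the medial amygdala and bed nucleus of the stria terminalis. Axons carry the peptides far from the cell bodies while most of the messenger RNA stays near the soma.

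In the GENCODE M21 annotation of mm10, Hcrt (ENSMUSG00000045471) lies on the minus strand of chr11:100761069-100762931, and Pmch (ENSMUSG00000035383) lies on the plus strand of chr10:88091072-88092375. Avp (ENSMUSG00000037727) is on the minus strand at chr2:130580620-130582554. Oxt (ENSMUSG00000027301) is on the plus strand at chr2:130576173-130577054, so the 2 neighbours face each other end to end with 3565 bases between them. Exons cover 749 bases in Hcrt, 749 in Pmch, 577 in Avp and 537 in Oxt. Parpbp, an antisense gene, overlaps 435 exon bases of Pmch, or 58.1% of them, and the strand setting of the counting is not given in the sources used here.

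Avp and Oxt are sister genes, and their sequences are shown because they limit how well counting can separate the pair. The codons of the mature 9-residue peptides, read from the GENCODE M21 transcripts, differ at the 5 of 27 bases written in capitals. These fall in 3 codons and change 2 amino acids.
Avp: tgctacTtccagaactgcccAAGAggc
Oxt: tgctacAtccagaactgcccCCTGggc
Downstream, in the part that encodes neurophysin, the carrier protein, the 2 transcripts share a run of 127 identical bases, of which all but 2 lie in exon 2 (chr2:130581133-130581257 in Avp, chr2:130576591-130576715 in Oxt, mm10). The run is in capitals within its Oxt surroundings, with 10 lower-case flanking bases on each side.
Oxt, shared run: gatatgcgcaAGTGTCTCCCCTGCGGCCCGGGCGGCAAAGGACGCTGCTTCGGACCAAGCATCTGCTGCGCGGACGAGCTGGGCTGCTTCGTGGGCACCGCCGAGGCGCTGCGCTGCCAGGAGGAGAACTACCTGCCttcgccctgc
Of the windows of 50 bases in each transcript, 78 of 488 in Oxt (16%) and 78 of 528 in Avp (14.8%) also occur in the other. A read inside the run could belong to either gene. How such reads were counted is not given in the sources used here, so the levels of Avp and Oxt are uncertain to that extent.

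The peptide-coding parts of Hcrt and Pmch, by contrast, are shown as the unlike products of the pair that was high in the same VTA libraries. The first line gives the 33 codons of hypocretin-1 and the second the 19 codons of melanin-concentrating hormone, with no base in capitals.
Hcrt: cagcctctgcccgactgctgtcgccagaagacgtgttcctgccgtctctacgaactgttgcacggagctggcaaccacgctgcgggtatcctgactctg
Pmch: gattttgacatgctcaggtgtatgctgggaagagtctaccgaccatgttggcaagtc
RefSeq promoter entries (GRCm38.p6) matched all 4 genes, and the 60 bases before each start are printed with a TATA-like motif in capitals. Hcrt (chr11:100762932-100762991, minus strand) and Pmch (chr10:88091012-88091071, plus strand) hold TATAAA. Avp (chr2:130582589-130582648, minus strand) and Oxt (chr2:130576109-130576168, plus strand) hold CATAAA. The RefSeq and GENCODE start sites of Avp and of Oxt differ.
Hcrt promoter: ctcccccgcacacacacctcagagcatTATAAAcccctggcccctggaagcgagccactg
Pmch promoter: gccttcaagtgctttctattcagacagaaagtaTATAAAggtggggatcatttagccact
Avp promoter: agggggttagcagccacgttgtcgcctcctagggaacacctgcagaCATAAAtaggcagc
Oxt promoter: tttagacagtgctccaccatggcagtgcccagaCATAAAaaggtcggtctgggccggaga
On the gene's strand, TATAAA occurs in 2.87% and CATAAA in 1.58% of all 32851 promoter windows of this length. On either strand the shares are 3.92% and 2.56%. The motifs do not overlap each other in these 4 windows, both strands were searched for the second pair of shares, and a match is a description of the letters and not of a bound factor.

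Total counts per library ran from 11866570 to 42135683, with a mean of 23614576. A gene at 0 counts could have up to 3 counts at this depth, which is 0.0712 to 0.253 CPM depending on the library. A single count was worth 0.0237 to 0.0843 CPM, so levels below about that size rest on 1 or a few reads. Intervals given for CPM levels are 95% exact Poisson intervals and cover counting error only. Intervals of log2 fold changes are 95% intervals from the SE of the edgeR fit, which also takes in differences between libraries. By their mean correlation with the other libraries of a region, 19 libraries stood apart (more than 3 scaled median absolute deviations below the region's median), among them VTA-113, VTA-175, BLA-115, BLA-065 and PFC-091. The predicted gene Gm20594 was above 1 CPM in 21 libraries, of which 19 were SC and 2 were CS, and these include VTA-043, VTA-113, VTA-144, BLA-043, BLA-083 and BLA-144. As a check of the VTA label, the summed level of 9 midbrain dopamine neuron markers was 2296 to 7548 CPM in the VTA libraries and at most 543 CPM in any other region. In bulk tissue, fewer cells of a type and less RNA per cell cannot be told apart.

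Across the 6 regions the 4 genes were at or near the counting limit in most libraries. Avp was the exception to sparsity: it was above 1 CPM in 35 of 38 BLA libraries, and its BLA median was 2.20 CPM (range 0.528 to 10.2). In the other 5 regions its medians ran from 0.0462 CPM in the CPu to 0.148 CPM in the VTA, with ranges that all overlapped. The PFC held the only other library above 1 CPM for Avp, PFC-183 at 2.58 CPM.

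Oxt, which like Avp marks magnocellular neurons, had its highest median in the BLA as well, at 0.311 CPM (range 0.0404 to 4.82). The VTA median was 0.0951 CPM, and the medians of the CPu, NAc, PFC and vHipp lay between 0.0439 and 0.0483 CPM. Those 4 regions cannot be ordered, since their medians differ by less than the value of 1 count. Oxt was above 1 CPM in 4 BLA libraries and in 1 vHipp library, Hipp-151 of the CS group, at 1.06 CPM (24 counts, interval 0.679 to 1.58).

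Hcrt and Pmch behaved differently from Avp, since a low median went with a few very high libraries. The median of Hcrt was 0.148 CPM in the VTA and 0.151 CPM in the BLA, lower in the PFC (0.0798), NAc (0.0443) and vHipp (0.0427), and 0 in the CPu. Its VTA mean of 1.74 ± 7.98 CPM (SD, n = 31) included 3 libraries above 1 CPM. Pmch had medians of 0.232 CPM in the VTA and 0.163 CPM in the BLA, and a VTA mean of 4.21 ± 17.6 CPM (SD, n = 31) with 5 libraries above 1 CPM. Neither gene exceeded 0.797 CPM in any library of the other 5 regions.

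**Figure D1:**
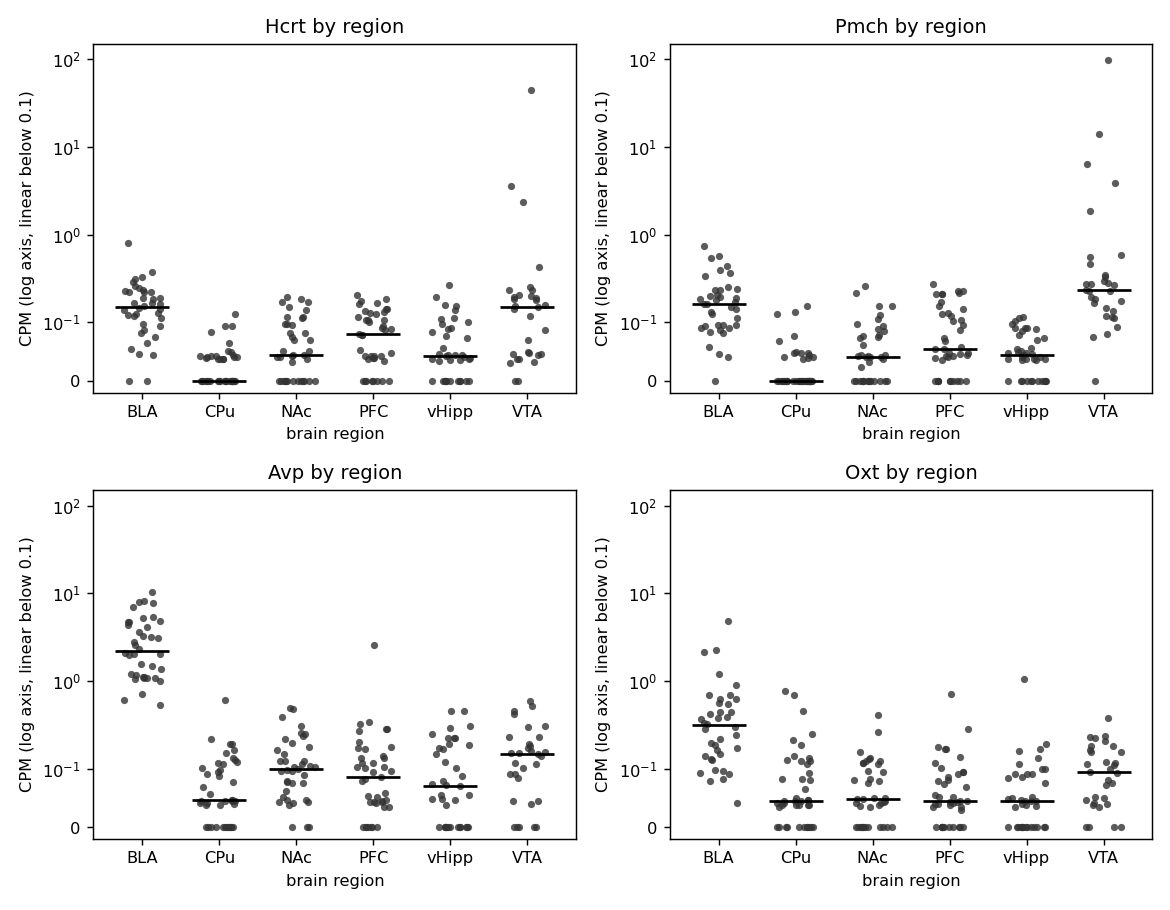
CPM of each gene (vertical axis, log scale that is linear below 0.1) in each library (points) by region, with the region median as a bar. Avp is raised across the BLA as a whole (median 2.20 CPM), Oxt is above 1 CPM in 4 BLA libraries, and Hcrt and Pmch are high in a few VTA libraries only, up to 44.6 and 98.1 CPM.

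Set per kilobase of exon, which allows the genes to be compared with each other, the mean VTA level of Pmch (5.62 CPM per kb) was above that of Hcrt (2.33), Avp (0.292) and Oxt (0.203). In the BLA the order was Avp (5.45 CPM per kb), Oxt (1.03), Pmch (0.268) and Hcrt (0.233). Over the BLA medians Avp also came first, at 3.81 CPM per kb against 0.580 for Oxt. In the VTA the medians of all 4 genes lay between 0.177 and 0.310 CPM per kb.

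In the VTA, 1 library held most of the counts of both lateral hypothalamic peptides. VTA-055, from a CS mouse, had 1117 of the 1368 Hcrt counts of the region, at 44.6 CPM (interval 42 to 47.3). It also had 2457 of the 3338 Pmch counts, at 98.1 CPM (interval 94.2 to 102.0). The other 2 CS libraries, VTA-072 and VTA-091, had 0.180 and 0.0443 CPM of Hcrt. Their Pmch levels were 0.135 and 0.266 CPM. All 4 values lay inside the range of the 6 SS libraries, which was 0 to 0.254 CPM for Hcrt (median 0.0422) and 0.0745 to 0.330 CPM for Pmch (median 0.156).

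Hcrt was also raised in 2 SC libraries. VTA-113 had 3.58 CPM (94 counts, interval 2.89 to 4.38) and VTA-043 had 2.36 CPM (70 counts, interval 1.84 to 2.99). The other SC libraries, VTA-161, VTA-144 and VTA-065, had 0.232, 0.0696 and 0.0465 CPM. VTA-113 and VTA-043 lie above all SS libraries, while the other 3 lie among them.

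The same 2 SC libraries were high in Pmch, in the opposite order. VTA-043 had 14.3 CPM (423 counts, interval 13.0 to 15.7) and VTA-113 had 6.47 CPM (170 counts, interval 5.54 to 7.52). VTA-144, VTA-161 and VTA-065 had 0.348, 0.232 and 0.0930 CPM. The intervals of VTA-043 and VTA-113 do not overlap for Pmch and do overlap for Hcrt. VTA-144 was slightly above the highest SS library (0.330 CPM) and the other 2 were within the SS range. VTA-043, VTA-113 and VTA-144 are the VTA libraries with Gm20594 above 1 CPM. The part of Gm20594 in these levels was not tested.

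Among the 5 CC libraries, VTA-053 alone was raised in Pmch, at 3.85 CPM (100 counts, interval 3.13 to 4.68), and it had the highest CC level of Hcrt, 0.423 CPM. In VTA-145, VTA-085, VTA-115 and VTA-074, Pmch was at 0.284, 0.185, 0.175 and 0.0802 CPM. Hcrt in these libraries was at 0.237, 0.0370, 0.0877 and 0.200 CPM. At 24 h, Pmch reached 1.85 CPM in VTA-182 of the S24 group (39 counts, interval 1.32 to 2.53), and the S24 range was 0 to 1.85 CPM with a median of 0.509. The 6 C24 libraries were between 0.114 and 0.297 CPM for Pmch (median 0.211), within the S24 range. Hcrt was 0.0453 to 0.203 CPM in S24 (median 0.171) and 0.0306 to 0.190 CPM in C24 (median 0.0836).

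**Figure D2:**
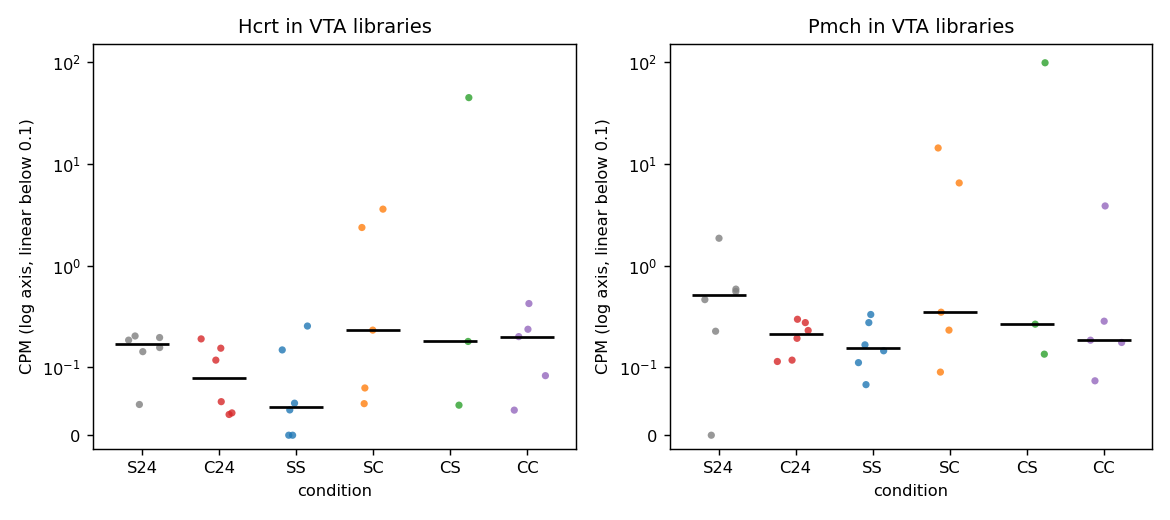
Hcrt (left) and Pmch (right) CPM (vertical axis, log scale that is linear below 0.1) in each VTA library by condition, with group medians as bars (n = 6, 6, 6, 5, 3 and 5 libraries). VTA-055 is the single high CS point in both panels (44.6 and 98.1 CPM), 2 SC points follow, and the medians of all groups are below 0.6 CPM.

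The CS against SS difference in the VTA, one of the results in view when the genes were chosen, was 7.37 (SE 1.27) for Hcrt and 7.52 (SE 1.49) for Pmch as log2 fold changes in the edgeR fit. Neither is given a test here, and VTA-055 is the only CS library above the SS range. The other comparisons among the 30 d groups share the SS or CS libraries with it, and their log2 fold changes are set side by side with no test. SC against SS was 3.82 (SE 1.37) for Hcrt and 4.59 (SE 1.48) for Pmch, and CC against SS was 1.14 (SE 1.86) and 2.39 (SE 1.74). CC against CS was -6.23 (SE 1.24) for Hcrt and -5.13 (SE 1.32) for Pmch. Without VTA-055 it was 0.80 for Hcrt and 2.20 for Pmch, the opposite sign. Without the 3 libraries with Hcrt above 1 CPM, SC against SS in Pmch was 0.38, and Hcrt no longer passed the filter on low counts. Without the 3 libraries with Gm20594 above 1 CPM, SC against SS in Pmch was -0.11. Without VTA-053, CC against SS in Pmch was 0.01.

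No such level appeared in other regions of the same animals. Mouse 055 had Hcrt at 0.0764 CPM in the vHipp, 0.0504 CPM in the NAc and 0 in the CPu, and Pmch at 0.115, 0 and 0.0492 CPM there. Mouse 043 had at most 0.145 CPM of Hcrt and 0.182 CPM of Pmch in its BLA, vHipp and PFC libraries. The mouse of VTA-113 had at most 0.0371 and 0.0679 CPM in its CPu, vHipp and NAc libraries. In all 3 animals the high level was thus seen in the VTA library alone among the regions measured.

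Across the 31 VTA libraries, Hcrt and Pmch varied together, with Pearson's r = 0.86 on log2 CPM and Spearman's rho = 0.31. Without the 2 libraries farthest from the median of Hcrt (VTA-055 and VTA-113), r was 0.63. VTA-043, also high in both genes, stayed in that value, so it does not describe the low libraries alone. Most of the other libraries held few counts of either gene. Parpbp, which overlaps Pmch, was 0.0739 to 0.703 CPM in the VTA and did not follow it (r = 0.08).

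The 5 genes most like Hcrt across the VTA libraries, of 17104 compared by Pearson's r of log2 CPM (scaled within the VTA, so that the value for Pmch differs slightly from the one above), were Pmch (0.85), Isl1 (0.79), Gal (0.78), Sp8 (0.75) and 5530601H04Rik (0.75). Isl1 and Sp8 encode transcription factors of the forebrain and hypothalamus, and Gal encodes the peptide galanin. Those most like Pmch included Hcrt (0.85), Sp8 (0.83), Isl1 (0.83) and Crhr2 (0.81), a urocortin receptor. Gal was highest in VTA-055 at 3.03 CPM, followed by VTA-113 at 1.03 and VTA-043 at 0.912 CPM, against a VTA median of 0.362. Sp8 put VTA-055 at the top (2.24 CPM), then VTA-043 (1.62) and VTA-113 (1.29), with a median of 0.0925 CPM. Isl1 was instead highest in VTA-113 (3.54 CPM), then VTA-055 (2.16), with VTA-043 in place 4 (1.25) and a median of 0.0508 CPM. Crhr2 was highest in VTA-055 (2.12 CPM), then VTA-113 (1.18), and VTA-043 was again in place 4 (0.878). The libraries share region and depth range, and by Spearman's rho only 1 of the 5 genes was the same for each of Hcrt and Pmch.

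Marker lists place the 3 libraries differently. Of 12 transcription factors of hypothalamic and mammillary neurons, VTA-055 had the highest VTA level for 5, named after their values were seen: Nkx2-1 (3.67 CPM, others up to 2.06), Nkx2-4 (0.639, others up to 0.267), Hmx2 (0.239, others up to 0.0917), Hmx3 (0.479, others up to 0.317) and Barhl1 (4.59, others up to 3.96). Nkx2-1 is a regional identity factor of the ventral hypothalamus, and its VTA median outside VTA-055 was 0.0413 CPM. The summed list in VTA-055 was 102 CPM, place 2 of 31 libraries (range of the others 63.7 to 123). Most of that sum was Pou3f2 (60.1 CPM, 16 from the top), and no member was at 0 in VTA-055. On the other hypothalamic lists VTA-055 was less set apart. Its sum of 9 further genes of the lateral hypothalamus was 76.3 CPM, place 7 of 31, with 1 of the 9 (Gal) at its highest. Its sum of the other hypothalamic peptide genes was 7.86 CPM, place 4, with none at its highest.

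VTA-113 led other lists. Its sum of the lateral hypothalamus genes was 142 CPM, the highest in the VTA (others 49.2 to 94.4), with 4 members highest, also named after their values were seen, Pdyn (48.3 CPM), Nptx2 (8.23), Cartpt (12.2) and Nts (19.3). Striatal markers were highest there too, at 535 CPM against at most 190 in the other VTA libraries, with 5 of 6 members highest. The striatum also expresses some of the 9 genes, Pdyn among them, and their sum in the CPu and NAc libraries was 131 to 538 CPM. VTA-043 led neither list, at 66.8 and 138 CPM. Its sum of the hypothalamic and mammillary transcription factors was 97.6 CPM, place 3 of 31, with 1 member at its highest. The same sum in VTA-113 was 88.7 CPM, place 12, with no member at its highest. Dopamine neuron markers summed to 3912 CPM in VTA-055, 4672 in VTA-113 and 4593 in VTA-043, against a VTA median of 4267 CPM. The part of these neighbouring tissues in the Hcrt and Pmch levels was not tested.

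The BLA, where Avp was present throughout, gave the second pattern. Avp was 1.01 to 7.80 CPM in the 7 S24 libraries (median 3.28) and 2.10 to 8.18 CPM in the 6 C24 libraries (median 3.63). The 30 d groups had lower medians: 1.12 CPM in SS (0.600 to 6.91, n = 7), 2.30 in SC (1.08 to 10.2, n = 7) and 1.76 in CC (0.528 to 4.78, n = 6). The 5 CS libraries BLA-091, BLA-014, BLA-111, BLA-072 and BLA-151 had 5.40, 1.958, 1.57, 1.10 and 0.714 CPM. Every group overlapped every other. The 24 h and 30 d groups differ in withdrawal time and in the injection together, which cannot be told apart, and they were not compared in a test. The highest 4 libraries came from 3 groups: BLA-144 (SC, 10.2 CPM, 242 counts), BLA-175 (C24, 8.18), BLA-043 (SC, 8.03) and BLA-204 (S24, 7.80).

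Oxt was lower and more uneven in the BLA. Its levels were 0.0404 to 1.21 CPM in S24 (median 0.0901), 0.0962 to 0.623 in C24 (median 0.331) and 0.0923 to 0.697 in SS (median 0.446). The SC group had the widest range, from 0.0977 to 4.82 CPM with a median of 0.216, and CC ran from 0.125 to 2.15 CPM (median 0.481). In the CS libraries BLA-091, BLA-072, BLA-151, BLA-014 and BLA-111, Oxt was at 0.686, 0.441, 0.381, 0.280 and 0.165 CPM. The groups overlapped throughout. The top libraries were BLA-144 (SC, 4.82 CPM, 114 counts, interval 3.98 to 5.79), BLA-043 (SC, 2.25 CPM, 62 counts), BLA-115 (CC, 2.15 CPM, 35 counts) and BLA-191 (S24, 1.21 CPM, 32 counts).

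**Figure D3:**
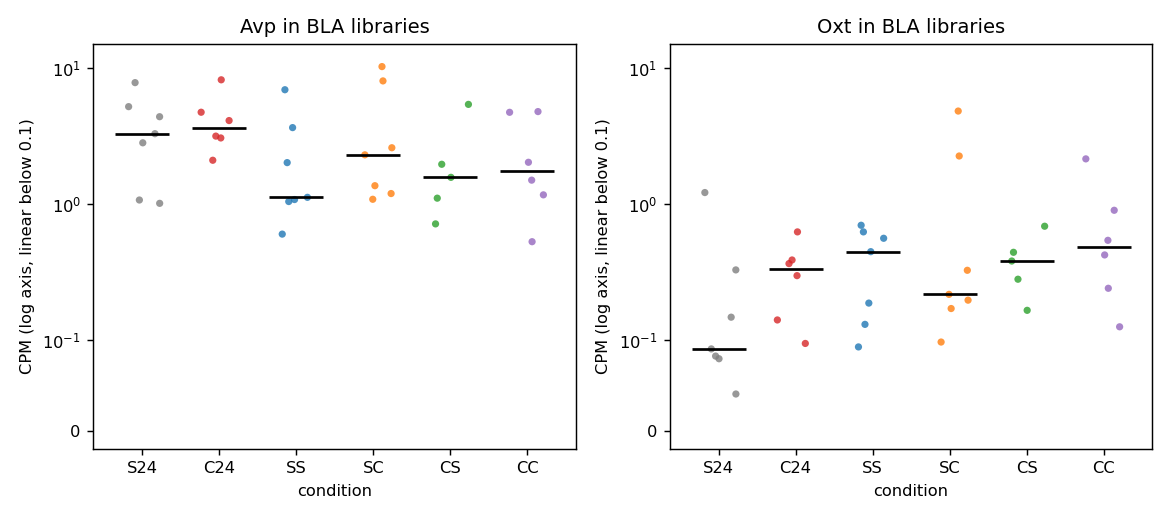
Avp (left) and Oxt (right) CPM (vertical axis, log scale that is linear below 0.1) in each BLA library by condition, with group medians as bars (n = 7, 6, 7, 7, 5 and 6 libraries). All groups overlap for both genes, and 2 SC libraries have the highest Oxt levels, 4.82 and 2.25 CPM.

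None of the comparisons given a test below passed an adjusted p under 0.05 in edgeR's quasi-likelihood test. The filter on low counts left only Avp and Oxt to test in the BLA and Hcrt, Pmch and Avp in the VTA, and none of the 4 in the CPu, NAc, PFC or vHipp. Hcrt passed that filter in the VTA through the 30 d libraries that were high, so its C24 against S24 difference is given with no test. For Avp and Oxt in the BLA contrasts, and for Pmch and Avp in C24 against S24 in the VTA, 0 of 14 tests were called by edgeR, with 1 at an unadjusted p under 0.05. DESeq2 and limma voom called 0 of these tests as well. Among all genes, the share called was 0.00587% for SC against SS and 0% for each of the other 5 BLA contrasts, and 0.00585% for C24 against S24 in the VTA, so a count of 0 among the members is near the background.

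The largest BLA difference was in Oxt for SC against SS, with a log2 fold change of 1.61 (SE 0.71, 95% interval 0.21 to 3.0, unadjusted p = 0.030, adjusted p = 0.87 by edgeR over all 17024 genes). It rests on a few SC libraries: without BLA-144 it was 0.58, and without the 3 SC libraries with Gm20594 above 1 CPM, a set that includes BLA-144 and BLA-043, it was -0.96. The fitted difference was positive although the SC median was below the SS median. For Avp the same contrast gave 0.74 (SE 0.58, adjusted p = 0.88, edgeR), and it was 0.28 and -0.30 in those same refits. C24 against S24 gave 0.20 (SE 0.58) for Avp and 0.05 (SE 0.88) for Oxt, with an adjusted p of 1.00 for both by edgeR. Their 95% intervals ran from -0.94 to 1.33 for Avp and from -1.67 to 1.77 for Oxt.

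In the other BLA contrasts, CS against SS was -0.11 (SE 0.66) for Avp and 0.02 (SE 0.87) for Oxt. CC against SS was 0.06 (SE 0.62) for Avp and 0.85 (SE 0.78) for Oxt, and CC against CS was 0.17 (SE 0.67) and 0.82 (SE 0.85). Without BLA-115 the Oxt values were 0.19 and 0.16 and the Avp values -0.23 and -0.13. The interaction, which asks whether the cocaine injection acted differently after cocaine than after saline self-administration, was -0.57 (SE 0.89) for Avp and -0.79 (SE 1.12) for Oxt. The smallest adjusted p among these was 0.81 by edgeR. All the 30 d contrasts share SS or CS libraries.

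In the VTA, C24 against S24 was -1.56 (SE 1.73) for Pmch and -0.17 (SE 0.68) for Avp, each with an adjusted p of 1.00 by edgeR. The difference in Hcrt was -0.70 (SE 1.83). VTA-182 was the 1 S24 library above 1 CPM of Pmch.

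**Figure D4:**
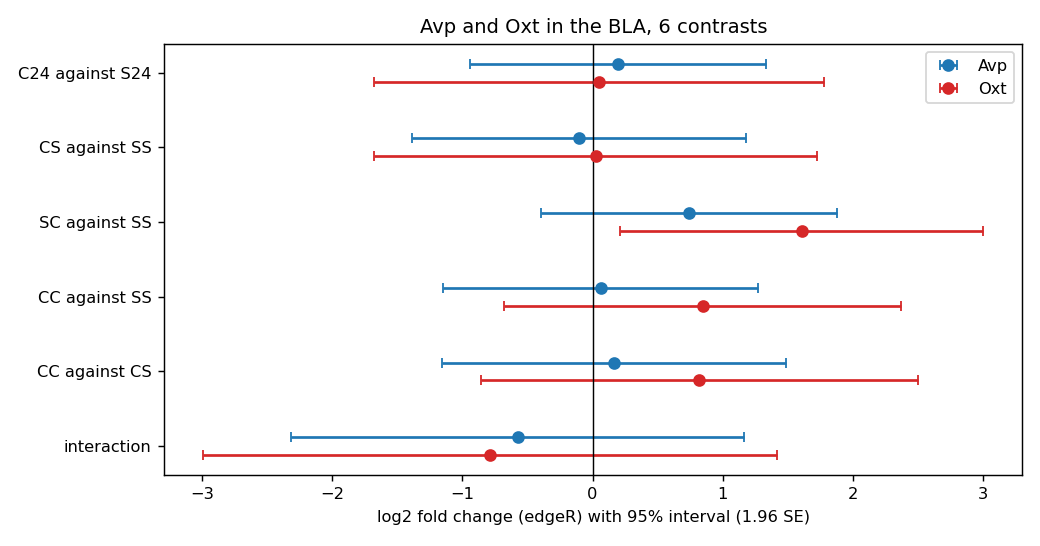
Log2 fold changes of Avp (blue) and Oxt (red) in the 6 BLA contrasts (horizontal axis, edgeR), with bars for the 95% interval from the SE of the fit. Every interval but that of Oxt in SC against SS (0.21 to 3.0) crosses 0, and no contrast passed after adjustment over all genes.

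The 6 regions were also fitted together with equal weight and the mouse as a block. In C24 against S24, none of Pmch, Avp and Oxt passed (unadjusted p = 0.96, 0.65 and 0.84, limma voom), against 0.851% of 18927 genes called. Hcrt was kept in this fit too, but was above 1 CPM only in 30 d libraries of the VTA. Its C24 against S24 difference (-0.26, SE 0.37) is therefore given with no test. The 30 d contrasts of this fit hold the VTA libraries that chose the genes and are given with no test. Among all genes the share called was 0.111% for SC against SS, 0.0581% for CS against SS, 0.0317% for CC against SS, 0.0423% for the interaction and 0% for CC against CS. CS against SS was 1.10 (SE 0.40) for Hcrt and 0.87 (SE 0.53) for Pmch on the log2 scale. For Hcrt, CC against CS was -0.91 (SE 0.41) and the interaction -1.44 (SE 0.57).

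Avp and Oxt also varied together in the BLA. Over 38 libraries Pearson's r on log2 CPM was 0.49, Spearman's rho was 0.42, and r was 0.42 without the 2 farthest libraries. Set beside Hcrt and Pmch in the VTA, Pearson's r was the lower and Spearman's rho the higher of the pair. The part of the shared 127-base run in this relation was not tested.

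**Figure D5:**
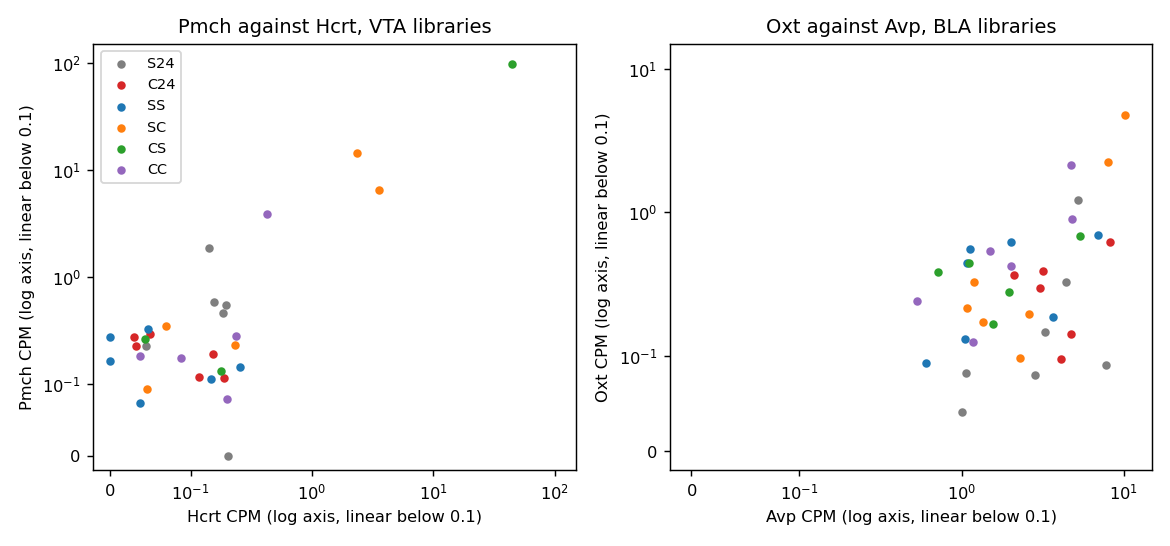
Pmch against Hcrt CPM in the 31 VTA libraries (left) and Oxt against Avp CPM in the 38 BLA libraries (right), on log axes that are linear below 0.1, with 1 point per library coloured by condition. The left panel shows 1 CS and 2 SC libraries far from the rest (r = 0.86), and the right panel shows a graded cloud (r = 0.49) with the 2 highest SC libraries at its upper end.

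The 5 genes most like Avp across BLA libraries, of 17023 compared, were Podxl2 (r = 0.76), Ngb (0.72), Magel2 (0.72), Ccdc166 (0.71) and Vps37d (0.70), and 4 of them were also in the first 5 by Spearman's rho. Podxl2 encodes a sialomucin, Ngb encodes neuroglobin, a globin of nerve cells, and Magel2 is an imprinted gene strong in the hypothalamus. Podxl2 was 55.1 to 124.96 CPM in the BLA and highest in BLA-043, Ngb was 7.99 to 55.7 CPM, and Magel2 was 11.8 to 55.02 CPM. The summed level of 7 markers of the central and medial amygdala, 291 to 610 CPM in the BLA, went with Avp (r = 0.60, rho = 0.62, r = 0.59 without the 2 farthest libraries). The summed striatal markers, 133 to 2016 CPM, ran the other way (r = -0.49). The sum of the central and medial amygdala markers was as high outside the amygdala, at 351 to 597 CPM in the NAc (median 451) and 391 to 1091 CPM in the VTA (median 602), against a BLA median of 439 CPM. The part of either tissue in the Avp level was not tested.

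For Oxt the 5 genes were Mrpl14 (r = 0.60), Bloc1s6 (0.60), Selenok (0.60), Tmem101 (0.59) and Atp5g3 (0.59), which include a mitochondrial ribosomal protein and a subunit of ATP synthase. Of the 5, 1 was shared with the list by Spearman's rho. All 5 genes were highest in BLA-115, a library that stood apart and was behind only BLA-144 and BLA-043 in Oxt. Without BLA-115, a choice made after seeing the data, their r fell to between 0.51 and 0.53, and Tmem101 and Atp5g3 were no longer among the first 5. BLA-115 also had the highest BLA sums of anterior pituitary hormones (88.2 CPM, others up to 46.0, with Gh at 73.7 and Prl at 13.1 CPM), of the other hypothalamic peptide genes (65.4 CPM, others up to 29.9, with Pomc at 32.3 and Crh at 28.9 CPM) and of peptide processing genes (6724 CPM, others up to 4865). Pomc and Crh made up most of its sum of hypothalamic peptide genes, and Crh is also on the list of central and medial amygdala markers. The tissue behind these sums was not tested. Without BLA-115, the Oxt difference in SC against SS was 1.61, and its adjusted p was 0.53 by edgeR. BLA-144, the highest library in Avp and Oxt, led none of these 3 sums, with 1.06, 17.3 and 4338 CPM. Of the 12 hypothalamic transcription factors, 3 had their highest BLA level in BLA-144, among them Hmx2 (0.0846 CPM) and Hmx3 (0.127 CPM). The peptide gene Prlh (0.0423 CPM) was also highest there, and these genes were named after their values were seen. The levels of all the genes named here lie below the limit for a gene at 0 counts in that library (0.132 CPM). The sum of those transcription factors in BLA-144 was 20.3 CPM, place 21 of 38. The pituitary gene Lhb was at 0 in all BLA libraries.

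Outside these regions, PFC-183 from a C24 mouse was the library with the highest Avp and Oxt of its region. It had Avp at 2.58 CPM (65 counts, interval 1.99 to 3.29) and Oxt at 0.714 CPM, while the other 7 C24 libraries of the PFC reached 0.284 and 0.0948 CPM. Of the 12 marker lists, PFC-183 led none by summed level, and Hcrt and Pmch were at 0.0397 and 0.119 CPM. The BLA library of the same mouse had Avp at 4.72 and Oxt at 0.140 CPM, inside the BLA range.

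The 7 comparisons given tests above are 6 in the BLA and C24 against S24 in the VTA. In these, 0 members of any of the 12 marker lists were called by edgeR in either direction. The share of all genes called was 0% to 0.00587%, so a count of 0 is near the background. For SC against SS in the BLA, 8 of 9 lateral hypothalamic genes could be tested, and their median log2 fold change was 0.16 against 0.01 for all genes. Of the 12 hypothalamic and mammillary transcription factors, 5 were tested there with a median of 0.93, and of the 10 other hypothalamic peptide genes 6 were tested with a median of 0.09. The 5 choroid plexus markers tested there had a median of 4.09, with 4 at an unadjusted p under 0.05. BLA-125, an SC library, had a summed level of 4999 CPM where the next SC library had 70.7 CPM, and the group medians of the sum were 58.4 CPM in SC and 56.3 CPM in SS.

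The receptors of the 4 peptides are made by the cells that respond to them, and 7 receptor genes were listed. Hcrtr1 and Hcrtr2, the orexin receptors, were highest in the VTA, at 19.0 ± 2.02 and 8.93 ± 1.44 CPM (SD, n = 31). Hcrtr1 followed in the BLA (6.09 ± 2.02, n = 38) and PFC (3.10 ± 0.935, n = 41) and averaged 1.03 CPM or less in the other regions. Its vHipp libraries reached 3.19 CPM and overlapped those of the PFC. Hcrtr2 was 2.88 to 3.72 CPM on average in the BLA, NAc, PFC and vHipp, whose libraries overlap, and 1.30 CPM in the CPu. Mchr1, the receptor of melanin-concentrating hormone in rodents, had another order. It was highest in the CPu (63.3 ± 6.22 CPM, n = 42) and NAc (59.6 ± 11.7, n = 39), which overlap, and lowest in the VTA (9.68 ± 1.93, n = 31).

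Oxtr, the oxytocin receptor, was highest in the vHipp (21.0 ± 4.93 CPM, SD, n = 39) and BLA (18.7 ± 4.29, n = 38), followed by the PFC (7.52), NAc (5.01), VTA (3.95) and CPu (1.955). Avpr1a, the main brain vasopressin receptor, averaged 1.69 ± 1.07 CPM in the VTA (n = 31) and below 1 CPM elsewhere. Its VTA libraries ran from 0.647 to 5.07 CPM and overlapped those of the NAc, which reached 2.64 CPM. Avpr1b and Avpr2 averaged at most 0.120 and 0.206 CPM in any region. In edgeR, 5 of the 7 receptors could be tested, in 29 pairs of receptor and region, and 0 of 174 tests over all regional contrasts were called, with 4 at an unadjusted p under 0.05. The share of all genes called in these comparisons was 0% to 0.0118%, with 0.0118% for SC against SS in the NAc and 0.00602% for the interaction in the CPu. The smallest adjusted p by edgeR was 0.37 for Oxtr in the vHipp in CS against SS, where the log2 fold change was 0.36 (SE 0.19).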

How the data were processed

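The values the authors deposited are raw counts for each Ensembl gene, 1 column per library, and every column was matched to a sample by its title. HTSeq, limma and mm10 are named per the submitters' processing notes. Per the labels' protocols, RNA was depleted of ribosomal RNA before ScriptSeq libraries, while the labels' molecule field names polyA RNA. The aligner, read length, strand setting and handling of reads with several matches are not given in the sources used here. Symbols from GENCODE M21 matched 42462 of 43346 identifiers (98.0%).

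From these counts, a separate model was made per region in edgeR 4.0.16 (R 4.3.3), after filterByExpr (min.count 10, min.total.count 15) and TMM scaling, with edgeR's quasi-likelihood test in its robust form. Benjamini-Hochberg adjustment covered all genes tested in that region for that contrast, and 0.05 was the threshold. The 6-region fit used limma 3.58.1 (voom, equal weight for each region) with the mouse as a block, at a consensus correlation of 0.04. Library titles carry a number that was read as the animal, so the block pairs libraries of 1 animal, and each region holds 1 library per mouse. Log2 CPM for correlations used a prior count of 2. Alternatives were DESeq2 1.42.0, limma voom, other scaling factors, no filter on low counts and leaving out libraries. The scripts were tested on simulated data.

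The members, marker lists and comparisons were chosen with earlier results of these data known. Genes named are the 4 members, the 5 genes most like each by Pearson's r in the region where its mean was highest, overlapping genes, receptors, and up to 4 list members by mean level. List members named for another reason are said to be so. Some genes that this rule names are not reported here.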

Additional observations from a re-analysis of the deposited data

Results flagged for a closer look

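In 7 of 39 groups of 4 to 10 libraries, the highest library lay far from the others of its group by Dixon's criterion. The groups were those of the genes that passed the filter in the BLA and VTA. Avp and Oxt in the PFC were added, although neither passed the filter there. For normally distributed values, chance alone meets the criterion in about 1 in 20 groups. These levels are skewed and often near the counting limit, so the count of groups is a description and no test. Pmch was at 3.85 CPM in VTA-053 (CC), where the other 4 libraries reached 0.284 CPM, and at 1.85 CPM in VTA-182 (S24), where the others reached 0.587 CPM. Avp was at 5.40 CPM in BLA-091 (CS), where the others were 0.714 to 1.958 CPM. Oxt was at 1.21 CPM in BLA-191 (S24), where the others were 0.0404 to 0.327 CPM. PFC-183 (C24) was the highest library of its group in both Avp, at 2.58 CPM with the others up to 0.284, and Oxt, at 0.714 CPM with the others up to 0.0948. Oxt was at 0.287 CPM in PFC-091 (CS), with the others up to 0.0782 CPM, and that library also stood apart from its region. The VTA CS group has 3 libraries and was not examined this way, so VTA-055 is not in this list.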

How the results depend on the processing

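The count of calls among the 4 genes in the regional contrasts was 0 by edgeR, 2 by DESeq2 (Hcrt and Pmch in the VTA interaction, which uses the CS and SS libraries that chose the genes), and 0 to 2 when libraries were left out in turn. The 2 calls without VTA-072, and the 2 without VTA-091, were Hcrt in CC against CS and in the interaction. These contrasts leave 2 CS libraries, rest on the VTA-055 level that chose the genes, and are no test of them. The 6-region count, which leaves out CS against SS as well, was 0 with the mouse as a block and 0 with no replicate block. These fitted differences changed sign, none of them called, and the cause was not tested. With limma voom, Avp in CS against SS in the BLA was 0.0573. Without the libraries that stand apart, Avp in the BLA was -0.22 in CC against SS and -0.13 in CC against CS, and the 6-region interaction was -0.0549 for Oxt and -0.0139 for Avp. Without the libraries with Gm20594 above 1 CPM, SC against SS was -0.96 for Oxt and -0.30 for Avp in the BLA and -0.11 for Pmch in the VTA, and the BLA interaction was 1.78 for Oxt and 0.47 for Avp. In the 6-region C24 against S24, Pmch was -0.0214 with no filter on low counts and -0.0220 with 1 mean per mouse. Leaving out 1 library at a time, CS against SS in the BLA ran from -0.28 to 0.23 for Oxt and from -0.80 to 0.12 for Avp, CC against SS from -0.23 to 0.0613 for Avp, CC against CS from -0.13 to 0.85 for Avp, and the interaction from -1.45 to 0.25 for Oxt and from -0.87 to 0.11 for Avp. In the VTA, CC against CS ran from -7.52 to 2.20 for Pmch and from -6.81 to 0.80 for Hcrt. Some libraries to leave out were chosen after seeing the data, as were the 3 VTA libraries with Hcrt above 1 CPM, without which Pmch was 2.20 in CC against CS and 1.82 in the interaction. In most gene and region pairs the depth left too few counts to test.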
